A study of Mus musculus with 8 samples.

Results

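The response of Xbp1-deficient mouse livers to a high-fat diet was read by comparing, gene by gene, the RPKM (reads per kilobase of transcript, scaled to the mapped reads) deposited for knockout livers on that diet with the RPKM of knockout livers on chow. The high-fat diet contained an equivalent of high-fructose corn syrup and was given for 4 weeks, as was the regular chow of the comparison group. All mice were C57BL/6. The knockout genotype is labelled Xbp1-/- and described as a deficiency of hepatic Xbp1, and the controls carry the floxed allele (Xbp1flox). The sources used here do not name the Cre driver or give the age and sex of the mice. Each of the 4 groups came from 4 mice whose samples were pooled into 2 libraries, so the knockout diet comparison draws on 4 of the 8 libraries of the series, and the flox diet comparison, used here only for reference, on the other 4. The deposited files hold 1 value per gene and group. No spread between libraries can be computed from 1 value, so the differences have no replicate check and no p-value is given. "Rose" and "fell" are used only for a change of at least 1 on the log2 scale, computed as log2((high fat + 1)/(chow + 1)). Any other value is given without such a verb, and "2-fold" refers to the same scale, with 1 RPKM added. Where 4 values of a gene follow one another, they are those of flox livers on chow, flox livers on the high-fat diet, knockout livers on chow and knockout livers on the high-fat diet.

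XBP1 is a bZIP transcription factor through which cells answer unfolded protein. The endoplasmic reticulum (ER) sensor IRE1 splices Xbp1 mRNA when unfolded proteins accumulate, and the spliced product drives genes for ER chaperones, protein translocation, ER-associated degradation and, in hepatocytes, lipid synthesis. In hepatocytes without XBP1, IRE1 is known to be hyperactive and to cleave a set of other mRNAs. A diet rich in fat and sugar increases the lipid and sterol load of the liver, and dietary sterol lowers the activity of SREBP2, the transcription factor of cholesterol synthesis.

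Of 22923 gene symbols in the files, 10180 entered the comparison: they had at least 1 RPKM in either knockout group and were not listed at exactly 0 in either. Another 5889 symbols were at 0 in both knockout groups and 6837 were above 0 but under 1 RPKM in both. The last gene inside that limit was Htra3, at 0.675 RPKM on chow and 1.00007 on high fat, and the first outside was Ccdc68, at 0.868 and 0.999556 RPKM. The remaining 17 symbols had at least 1 RPKM in 1 knockout group and were listed at 0 in the other, 10 of them at 0 on chow and 7 at 0 on high fat. Of these, 13 were small RNA genes. The other 4 were abundant liver transcripts: Apoe, the lipoprotein ligand apolipoprotein E, was listed at 11145 RPKM on chow and at 0 on high fat, Serpina1e at 0 and 2537 RPKM, Serpina1c at 0 and 3004 RPKM, and Serpina1a at 0 and 1858 RPKM. Alb, the albumin gene, was listed at 0 in all 4 groups. A 0 for a gene that every hepatocyte expresses can be a failed estimate, so these genes have no change here. Of the tested genes 403 were under 1 RPKM on chow and entered only through their high-fat values, which fixed their changes above 0. For 135 genes under 1 RPKM on high fat the reverse held.

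In the knockout livers 69 genes rose with the high-fat diet (0.678% of the 10180 genes) and 82 fell (0.806%). The rises included secreted acute phase proteins, glutathione S-transferases of the alpha and mu classes, the apolipoprotein gene Apoa4, stress and growth-arrest genes such as Nupr1, Ddit3 and Cdkn1a, and markers of macrophages and matrix. The falls included male-biased liver genes, bile acid and cholesterol synthesis enzymes and enzymes of amino acid breakdown. Genes of the ER chaperone list differed by less than 2-fold without exception, but so did nearly all genes, and this does not set the list apart.

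The median change of the 10180 genes was -0.11, and 66.6% of them were below 0, so changes are also stated with that median subtracted. A change within 0.5 of 0 was seen for 88.1% of genes. The median change differed by level: the median was 0.03 over the 2545 genes with the lowest mean level and -0.30 over the 2545 with the highest, and 58 of the 82 falls lay in the latter. The sum of RPKM over all genes was 461392 on chow and 367414 on high fat in knockout livers, against 513694 and 461725 in flox livers. These sums, and the rescaling to equal sums below, include entries listed at 0 in 1 knockout group. Among them were Apoe, at 11145 RPKM on chow and 0 on high fat, and the small RNA gene Mir135a-1, at 0 and 17762. When the groups were rescaled without their 50 most abundant genes, the median change was higher by 0.25, at 0.13, and 140 of 10494 genes rose (1.33%) and 47 fell (0.448%), while subtracting the median gave 91 rises (0.894%) and 63 falls (0.619%). Rescaled to equal sums over all genes, 152 of 10537 genes rose (1.44%) and 44 fell (0.418%). These scalings all move the changes upward. Of the 82 falls, 63 were kept under the subtraction and 47 under the rescaling without the 50 most abundant genes. The median change in 4 classes of transcript length of nearly equal size was -0.19, -0.18, -0.10 and -0.02 from the shortest to the longest transcripts in knockout livers, and -0.07, -0.06, -0.03 and 0.07 in flox livers. The part of library composition, length or RNA quality in the diet changes was not tested.

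**Figure D1:**
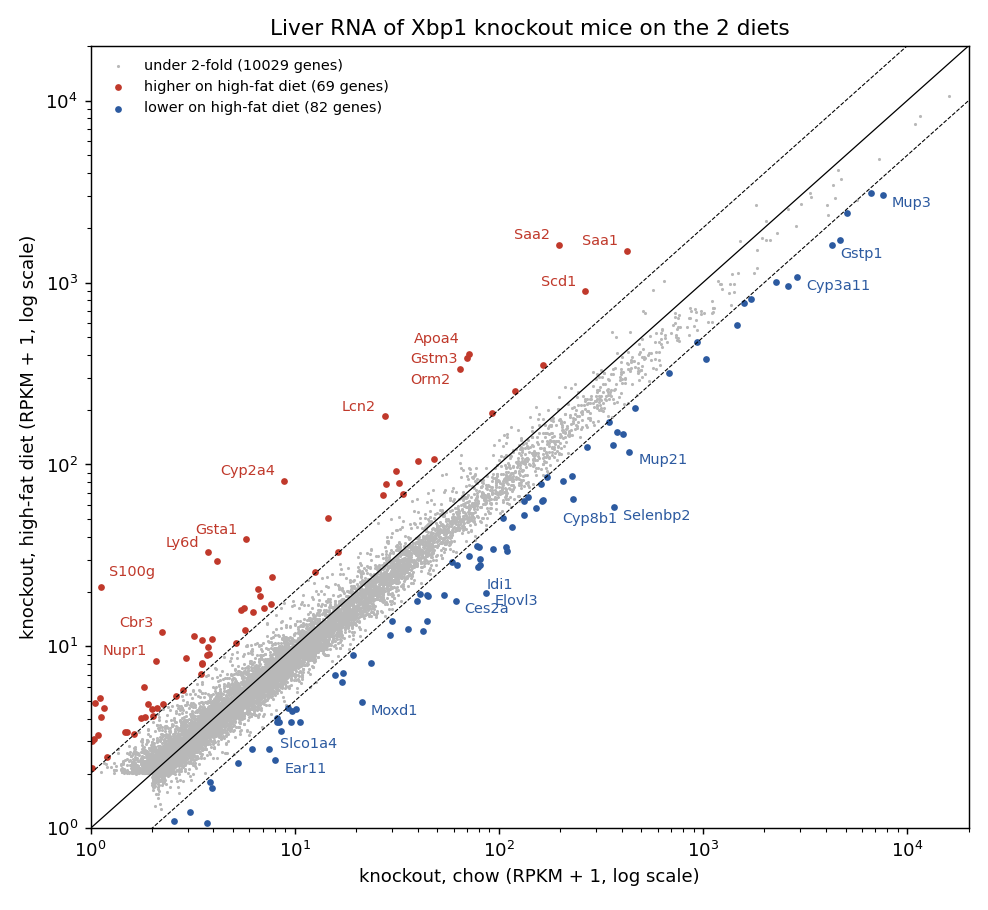
Deposited level of each of 10180 genes in knockout livers on chow (horizontal) and on the high-fat diet (vertical), as RPKM + 1 on log axes, 1 point per gene and 1 deposited value per group. The solid line is no change and the dashed lines are 2-fold; red points are the 69 rises, blue points the 82 falls, and most blue points lie at high levels.

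Xbp1 itself was at 44.2 RPKM in knockout livers on chow and 34.1 on high fat, against 112 and 90.7 RPKM in flox livers. Both knockout values lay below both flox values. The gene (chr11:5520659-5525893, plus strand, GRCm38) loses only its floxed part in such a deletion, and cells other than hepatocytes are present in whole liver, so a whole-gene value above 0 does not measure intact hepatocyte Xbp1. Its diet change was -0.37 in knockout and -0.30 in flox livers. Ern1, the gene of IRE1, was at 4.69 RPKM on chow and 6.1 on high fat in knockout livers, and at 3.86 and 5.39 in flox livers.

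None of the 29 ER chaperone and foldase genes rose or fell in the knockout livers, and their median change was 0.11 against -0.11 over all genes. Of the 29, 22 were above the all-gene median. Hspa5, the gene of the main ER chaperone BiP, was at 204 RPKM in flox livers on chow, 181 in flox livers on high fat, 99.8 in knockout livers on chow and 136 in knockout livers on high fat, a knockout change of 0.44. The knockout level was thus higher on high fat than on chow but below both flox levels. Hyou1, a large ER chaperone of the HSP70 family, went from 7.72 to 10.2 RPKM in knockout livers (flox 24.2 and 19.1), and Ero1lb, an oxidase that supports disulfide formation, from 6.45 to 9.62 RPKM (flox 13 and 15.5). At the other end Pdia5, a protein disulfide isomerase, went from 23.1 to 15.6 RPKM and Ssr4, a subunit of the translocon-associated complex, from 69.7 to 49.2. The summed level of the list was 1455 RPKM on chow and 1461 on high fat in knockout livers, and 2608 and 2326 RPKM in flox livers, whose median change was -0.22.

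The other secretory lists also held few changes, as did all genes together, of which 0.678% rose and 0.806% fell. Of 35 genes for ER translocation and N-glycosylation none rose or fell, with a median of -0.09 that became 0.18 when rescaled without the 50 most abundant genes. Of 20 tested genes for ER-associated degradation 1 rose. This was Derl3, a member of the Derlin channel family, listed at 7.42 RPKM in flox livers on chow, 4.82 in flox livers on high fat, 2.92 in knockout livers on chow and 9.95 in knockout livers on high fat, a knockout change of 1.48 against -0.53 in flox livers. Its neighbours in the pathway stayed within 2-fold: Herpud1, an ER membrane adaptor, was at 156 and 164 RPKM and Sel1l, the adaptor of the HRD1 ligase, at 17 and 19.3.

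The promoters of these genes are shown because the ER stress response element, CCAAT and CCACG with 9 bases of any kind between them, searched on both strands, is the sequence through which ATF6 and XBP1 are known to act on them. It was found in 0.137% of 27025 RefSeq genes with a promoter window (250 bases before to 50 after the start) and in 0.196% of the 8174 tested genes with such a window. Here and below, counts and shares of windows are per gene, and a gene counts once if any of its windows held the letters. In the ER chaperone list it was found in 8 of 25 windows: Calr, Canx, Creld2, Dnajc3, Ero1b (Ero1lb in the files), Hsp90b1, Hspa5 and Pdia6. Among the rises it was found in 1 of 55, Derl3, and among the falls in 0 of 59. Capitals mark the match, and each stretch is read 5′ to 3′ on the gene's strand from RefSeq (GRCm38.p6): Derl3 at chr10:75893212-75893290 (plus strand), Hspa5 at chr2:34771995-34772073 (plus strand), Pdia6 at chr12:17266461-17266539 (plus strand) and Creld2 at chr15:88819490-88819568 (plus strand).
Derl3: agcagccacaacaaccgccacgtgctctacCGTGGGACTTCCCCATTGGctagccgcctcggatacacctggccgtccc
Hspa5: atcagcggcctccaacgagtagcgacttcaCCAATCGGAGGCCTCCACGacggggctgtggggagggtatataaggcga
Pdia6: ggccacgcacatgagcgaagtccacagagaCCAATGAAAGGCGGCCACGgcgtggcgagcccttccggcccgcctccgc
Creld2: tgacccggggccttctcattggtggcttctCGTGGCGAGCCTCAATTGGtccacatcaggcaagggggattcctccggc
Derl3 and Creld2 carry the element in the reverse orientation and Hspa5 and Pdia6 in the forward one. Their knockout changes were 1.48 for Derl3, 0.44 for Hspa5, 0.15 for Pdia6 and 0.24 for Creld2, so the same letters stood before genes that changed by more and by less than 2-fold. A match describes the letters in the window and is not evidence of binding.

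Among 15 tested sensors and factors of the unfolded protein response 1 rose, Ddit3, which encodes CHOP, a pro-apoptotic transcription factor of prolonged ER stress. Ddit3 was at 4.23 RPKM in flox livers on chow, 4.99 in flox livers on high fat, 5.78 in knockout livers on chow and 18 in knockout livers on high fat, a knockout change of 1.49 (1.60 after subtraction of the median). The knockout value on high fat was the highest of the 4 and the other 3 lay close together. Of 24 tested targets of ATF4 and CHOP 3 rose and 1 fell, with a median of 0.11, and 5 rose and none fell when rescaled without the 50 most abundant genes. Over the 20 targets tested in both genotypes the median was -0.0052, against -0.08 in flox livers. Atf4, the factor itself, was at 38.3 RPKM on chow and 32 on high fat in knockout livers.

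Nupr1, a stress-induced chromatin protein, was at 0.59, 1.16, 1.09 and 7.34 RPKM in that order of groups, a knockout change of 1.99. The other rises of the list were Ddit3 and Atf3, a stress-induced bZIP repressor that was at only 0.5 RPKM on chow and 2.38 on high fat. Trib3, a pseudokinase induced by CHOP, went from 3.86 to 7.62 RPKM and Fgf21, a fasting hormone, from 2.07 to 4.47 RPKM, both within 2-fold on the log2(RPKM + 1) scale. Gdf15, another stress hormone, was at 4.6 and 5.9 RPKM. In the opposite direction Asns, asparagine synthetase, fell from 44 RPKM in knockout livers on chow to 17.9 on high fat, a change of -1.25, and was at 4.02 and 1.82 RPKM in flox livers. So Asns was higher in the knockout than in the flox livers on both diets, and lower on high fat than on chow in both genotypes. Of the 20 aminoacyl-tRNA synthetases, which ATF4 also induces, none rose or fell. Their median was -0.20, which became 0.07 when rescaled without the 50 most abundant genes.

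The C/EBP-ATF response element, TGATGNAAT on both strands, through which ATF4 and CHOP are known to act, was found in 1.08% of the RefSeq windows, in 0.624% of those of tested genes and in 2 of 21 windows of this list, those of Nupr1 (chr7:126625543-126625611, minus strand) and Fgf21 (chr7:45615592-45615660, minus strand). They are printed because Nupr1 had the largest rise of the list. Capitals again mark the match, and both genes carry it in the reverse orientation.
Nupr1: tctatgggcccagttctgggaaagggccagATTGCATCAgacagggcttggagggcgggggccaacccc
Fgf21: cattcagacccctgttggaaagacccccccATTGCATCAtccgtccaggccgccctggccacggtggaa
Among the windows of the rises the letters were found in 2 of 55, those of Nupr1 and Cd5l.

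Of the 20 genes listed here as candidate IRE1 decay substrates, 2 fell and none rose, with a median of 0.12. Cleavage of their mRNAs was not measured. The balance turned with the scaling: 1 rose and 1 fell with the all-gene median subtracted, and 3 rose and 1 fell, with a median of 0.41, when rescaled without the 50 most abundant genes. The list was drawn up with earlier results of these data known and is no independent evidence of a direction. Both falls were carboxylesterases: Ces2a went from 60.5 to 16.8 RPKM in knockout livers (155 and 116 in flox livers), a change of -1.79, and Ces3b from 104 to 50.03, a change of -1.05 that became -0.93 with the median subtracted. The other carboxylesterases of the list stayed within 2-fold on the log2(RPKM + 1) scale and were not all on one side. Ces3a was lower on high fat, at 1241, 1183, 1114 and 726 RPKM in the order given above, and Ces1g higher in knockout livers, at 84.1, 70.3, 7.56 and 15.3. Retsat, a retinol saturase, was in the same order of groups at 129, 152, 15.6 and 27.5 RPKM, and Dgat2, the main enzyme of hepatic triglyceride assembly, was at 239, 238, 37.3 and 46.8. Ces1g, Retsat and Dgat2 remained far below the flox values on either diet. Carboxylesterase genes are similar in sequence, and reads could have been shared among them.

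The acute phase and innate secreted proteins, which the liver releases into blood during inflammation, held the largest group of abundant rises: 7 of 31 tested members rose and 2 fell. The median was 0.06, so most of the list did not move with its leaders. Saa2, a serum amyloid A (chr7:46751790-46754313, plus strand), was at 1699 RPKM in flox livers on chow, 1433 in flox livers on high fat, 197 in knockout livers on chow and 1613 in knockout livers on high fat. Its knockout change of 3.03 brought it from far below the flox levels to between them. Saa1 followed the same course at 2201, 2022, 425 and 1498 RPKM, a knockout change of 1.81, and remained below both flox levels. Saa1 and Saa2 are near-identical copies, so the split of reads between them is uncertain.

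Lcn2, lipocalin 2, which withholds iron-binding siderophores from bacteria, was at 94.2 and 98.1 RPKM in flox livers, 26.6 in knockout livers on chow and 184 in knockout livers on high fat, a knockout change of 2.75. Orm2, an orosomucoid that binds drugs and lipids in plasma, was at 143 and 141 RPKM in flox livers and 63.4 and 332 in knockout livers, a change of 2.37. For both genes the knockout value was the lowest of the 4 groups on chow and the highest on high fat. Saa3, made by macrophages as well as hepatocytes, rose from 26.2 to 66.7 RPKM in knockout livers and was at 20.02 and 13.2 in flox livers. The 2 members that fell were Lbp, the lipopolysaccharide-binding protein, from 38.7 to 16.7 RPKM (-1.16), and Hamp, the iron hormone hepcidin, from 5105 to 2421 RPKM (-1.08). Hamp also fell in flox livers, from 7123 to 2282 RPKM, and with the median subtracted its knockout change was -0.96. Rescaled without the 50 most abundant genes, the list had 8 rises and no fall.

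Genes for detoxification split within families. Of 23 tested glutathione S-transferases, which attach glutathione to reactive compounds, 3 rose and 2 fell. The median was -0.30, and -0.02 when rescaled without the 50 most abundant genes. Gstm3 (chr3:107963696-107969283, minus strand) was at 59.99 RPKM in flox livers on chow, 19.4 in flox livers on high fat, 68.9 in knockout livers on chow and 384 in knockout livers on high fat. The 2 chow values were close, and from there the gene fell in flox livers and rose in knockout livers. Gsta1 was at 3.03, 1.48, 4.79 and 37.8 RPKM in the same order, a knockout change of 2.74, and its near-identical copy Gm3776 at 1.51, 1.05, 3.18 and 28.6 RPKM. Reads of Gsta1, Gm3776 and Gsta2 could not be told apart with certainty. The pi-class enzymes went down instead: Gstp1 fell from 4266 to 1611 RPKM and Gstp2 from 1038 to 381 in knockout livers, with flox values of 4407 and 2492 RPKM for Gstp1.

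Of 31 tested genes of the oxidative stress response governed by NRF2, 3 rose and none fell, with a median of -0.01 (6 rises and a median of 0.27 when rescaled without the 50 most abundant genes). Cbr3, a carbonyl reductase, was at 0.362 and 0.299 RPKM in flox livers, 1.25 in knockout livers on chow and 10.9 in knockout livers on high fat. Gpx3, a plasma glutathione peroxidase, was at 2.46, 2.86, 2.46 and 6.06 RPKM, and Gpx2, the third rise, was near 0 outside the knockout livers on high fat, where it was at 3.87 RPKM. Nqo1, the quinone reductase often used to read NRF2 activity, was at 3.27, 3.12, 4.81 and 9.13 RPKM, a knockout change of 0.80, and Srxn1, sulfiredoxin, at 13.4 and 23 RPKM in knockout livers, both within 2-fold. Some abundant antioxidant enzymes were lower on high fat within 2-fold, with Sod1, superoxide dismutase, at 1106 and 679 RPKM and Gpx1, the main cellular glutathione peroxidase, at 1782 and 1126. The antioxidant response element, TGACNNNGC on both strands, was in 10 of 27 windows of this list, in 13.99% of all RefSeq windows, in 17.3% of the windows of tested genes and in 5 of 55 windows of the rises.

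Among 31 tested drug-metabolising cytochrome P450 genes 2 rose and 3 fell, and the median of -0.24 became 0.05 when rescaled without the 50 most abundant genes. Cyp2a4, a steroid hydroxylase that is normally higher in female than in male liver (chr7:26307169-26315088, plus strand), was at 2.24 and 2.38 RPKM in flox livers, 7.87 in knockout livers on chow and 80.3 in knockout livers on high fat, a knockout change of 3.20. Its near-identical copy Cyp2a5 was at 667, 829, 646 and 1016 RPKM, so the reads of the 2 genes may not have been fully separated. The 3 falls were all of the Cyp3a family: Cyp3a11, the main drug-oxidising enzyme of mouse liver, fell from 2879.8 to 1067 RPKM in knockout livers (1804 and 1049.9 in flox livers), Cyp3a25 from 270.4 to 123, and Cyp3a59 from 16.1 to 5.36. In flox livers Cyp3a25 and Cyp3a59 were slightly higher on high fat than on chow.

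**Figure D2:**
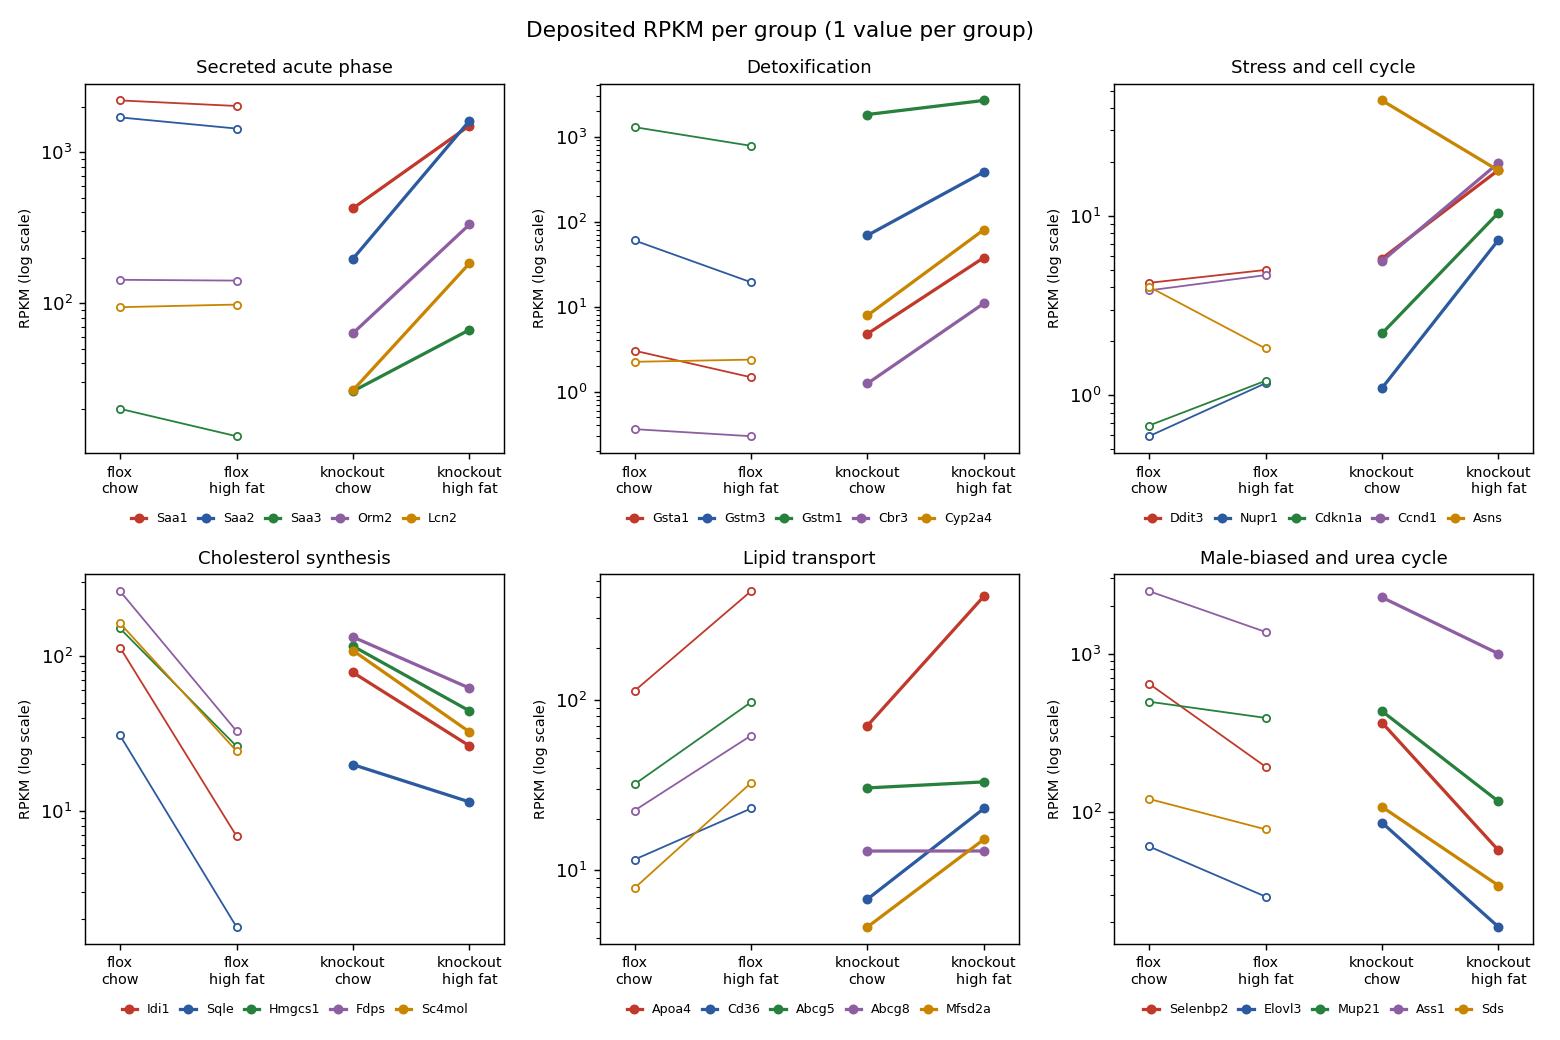
Deposited RPKM (log axis) of 30 genes in 6 groups of function; open points are flox livers, filled points knockout livers, and a line joins chow and high fat within a genotype. Each point is 1 deposited value with no error; Saa1, Saa2, Orm2 and Lcn2 climb in knockout livers from chow values below the flox values, Gstm3 moves in opposite directions in the 2 genotypes, and Idi1 and Sqle drop further in flox livers.

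Genes of the sex-biased programme, which growth hormone pulses set in rodent liver, moved on both sides. Of 20 tested male-biased genes 10 fell and none rose, with a median of -1.01 (-0.89 after subtraction of the all-gene median, with 9 falls). In flox livers 2 of 21 fell and the median was -0.40. Of the 37 listed male-biased genes 13 were under 1 RPKM in both knockout groups, 11 of them at exactly 0 in both. Selenbp2, a selenium-binding protein (chr3:94693556-94704413, plus strand), was at 647 RPKM in flox livers on chow, 193 in flox livers on high fat, 367 in knockout livers on chow and 57.1 in knockout livers on high fat. It was lower on high fat in both genotypes and had the largest knockout fall of all genes, -2.66. Elovl3, a fatty acid elongase, was at 60.5, 29.1, 85.5 and 18.7 RPKM in the same order. Mup21, a major urinary protein, was at 498 and 393 RPKM in flox livers and 434 and 117 in knockout livers, and Mup5 at 360.4 and 128 in knockout livers. The Mup genes are close copies of each other, and their reads could have been divided unevenly. Of 12 tested female-biased genes 3 rose and none fell: Cyp2a4, Acot3, an acyl-CoA thioesterase (1.92 to 7.68 RPKM, and 1.77 to 6.12 in flox livers), and Cyp2b9 (0.836 to 4.99 RPKM). Cyp2b9 was tested only through its high-fat value, and 19 of the 31 listed genes were under 1 RPKM in both knockout groups. The female-biased median was 0.36, against 0.09 in flox livers over the same 12 genes.

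Of 19 genes of the growth hormone and IGF1 axis 1 rose and 1 fell, and the fall was lost when rescaled without the 50 most abundant genes. Cish, a feedback inhibitor induced through STAT5, fell from 9.11 to 3.5 RPKM in knockout livers, and was at 9.19 and 5.65 in flox livers. Igfbp1, a circulating IGF-binding protein that insulin represses, rose from 13.5 to 49.7 RPKM in knockout livers, a change of 1.81, and was at 7.44 and 7.52 in flox livers. Its knockout value on high fat stood above the other 3. Bcl6, a repressor of female-biased genes, was at 8.43, 12.7, 11.3 and 6.72 RPKM, higher on high fat in flox and lower in knockout livers without reaching 2-fold in either. Igfals, the acid-labile partner of IGF1, was at 44.5 and 25.1 RPKM in knockout livers. The sex of the mice in each pool is not given, and a difference in sex between the pools was not tested.

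All 26 genes of cholesterol synthesis and uptake were lower on high fat in knockout livers, and 7 of them fell, with a median of -0.68. With the all-gene median subtracted 5 fell, and 3 when rescaled without the 50 most abundant genes. The flox livers had 17 falls among the same 26 genes and a median of -1.56. Idi1, an isomerase of isoprenoid units (chr13:8885501-8892451, plus strand), was at 113 RPKM in flox livers on chow, 6.89 in flox livers on high fat, 78.1 in knockout livers on chow and 26.3 in knockout livers on high fat, changes of -3.86 in flox and -1.54 in knockout livers. Sqle, squalene epoxidase, was at 30.7, 1.79, 19.9 and 11.4 RPKM in the same order, and its knockout change of -0.75 did not reach 2-fold. In both genes the flox values bracketed the knockout values: the knockout livers were lower on chow and higher on high fat.

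The same bracket was seen for Fdps, farnesyl diphosphate synthase, at 261, 32.8, 132 and 62 RPKM, and for Hmgcs1, the first committed synthase, at 150.3, 26.2, 116 and 44.2. Both fell in knockout livers, by 1.08 and 1.37 on the log2 scale. The bracket did not hold for the list as a whole. Its summed level was 2120 RPKM on chow and 832 on high fat in flox livers, and 1361 and 798 in knockout livers. Tm7sf2, another of the falls, was at 125, 39.2, 77.4 and 34.7 RPKM, lowest in the knockout livers on high fat. Sc4mol, a sterol methyl oxidase, had the largest knockout fall of the list, from 108 to 32.4 RPKM, and Mvk, mevalonate kinase, fell from 14.7 to 5.93. The sterol regulatory element, TCACNCCAC on both strands, was in 1.44% of RefSeq windows, in 1.57% of those of tested genes and in 1 of 17 windows of this list, that of Hmgcs1 (chr13:119690184-119690252, plus strand), which is shown with the match in capitals.
Hmgcs1: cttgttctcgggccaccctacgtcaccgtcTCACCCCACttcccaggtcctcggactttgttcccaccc
The other windows of the list did not hold these letters, and other spellings of the element were not searched.

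Of 16 genes for sterol efflux and other LXR targets 2 rose and none fell. Abcg5 and Abcg8, the subunits of the transporter that moves sterol into bile, were at 32 and 22.4 RPKM in flox livers on chow and 96.7 and 61.6 in flox livers on high fat. In knockout livers they were at 30.4 and 13 RPKM on chow and 33 and 13 on high fat. The flox livers thus had a rise of 1.57 and 1.42 on the log2 scale, and the knockout changes were 0.11 and 0.0018. Pltp, the phospholipid transfer protein, rose in knockout livers from 15.2 to 32.1 RPKM and was at 22.3 and 23.5 in flox livers. Abca1, the cholesterol exporter to HDL, was at 10.1 and 13.2 RPKM. The other rise was Scd1, below.

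Of 26 tested genes for bile acid synthesis and transport 3 fell and none rose, and the median was -0.30 (-0.02 when rescaled without the 50 most abundant genes, with 3 falls and 1 rise). Cyp8b1, the sterol 12-alpha-hydroxylase that makes cholic acid (chr9:121914356-121916305, minus strand), was at 183, 104, 229.9 and 63.3 RPKM in the order given above, a knockout change of -1.84. Cyp7b1, the oxysterol hydroxylase of the alternative pathway, was at 168, 96.2, 226 and 85.2 RPKM. Both were lower on high fat in both genotypes, and the knockout values were the highest of the 4 on chow and the lowest on high fat. Cyp7a1, the rate-limiting enzyme of the classical pathway, was at 33.7 and 33.2 RPKM in knockout livers and 31.5 and 26 in flox livers. Slco1a4, an organic anion uptake carrier, fell from 6.5 to 1.71 RPKM.

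In fatty acid and triglyceride synthesis 3 of 29 tested genes rose and 1 fell, with a median of 0.09. The rises were all desaturases or elongases. Scd1, the main stearoyl-CoA desaturase, was at 929 RPKM in flox livers on chow, 264 in knockout livers on chow and 894 in knockout livers on high fat, and was listed at 0 in flox livers on high fat. That 0 can be a failed estimate, so no flox change was taken for Scd1, and its knockout change of 1.75 rests on estimates of the same kind. Fads2, a delta-6 desaturase, was at 214, 343, 119.7 and 251 RPKM, and Elovl5, its partner elongase, at 82.1, 154, 47.3 and 107. Both were higher on high fat in flox livers too, by 0.67 and 0.90. Fasn, fatty acid synthase, was at 21.4 and 25.2 RPKM in knockout livers, and the fall of the list was that of Elovl3.

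Of 46 genes for fatty acid oxidation and other PPARA targets 6 rose and none fell, and the median was -0.05 (10 rises and a median of 0.22 when rescaled without the 50 most abundant genes). Cd36, a fatty acid uptake receptor, was at 11.6 and 23 RPKM in flox livers and 6.78 and 23 in knockout livers, so both genotypes reached about the same value on high fat. The omega-hydroxylases Cyp4a10 and Cyp4a14 rose from 30.2 to 90.8 and from 31.5 to 78.5 RPKM in knockout livers. In flox livers they were at 145 and 156, and at 55.6 and 36.8 RPKM. Cyp4a31, which also rose, is a close copy of Cyp4a10, and their reads may not have been fully separated. The remaining rises were the thioesterases Acot2, from 2.82 to 8.06 RPKM, and Acot3. The enzymes of the oxidation spiral itself stayed within 2-fold, such as Acadm, medium-chain acyl-CoA dehydrogenase, at 163 and 148 RPKM and Cpt1a, the gate of mitochondrial entry, at 73 and 84.7. Acadm and Cpt1a were named after their values were seen.

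None of 19 tested lipid droplet and lipolysis genes rose or fell. Plin5, a droplet coat protein, was at 7.53 and 5.48 RPKM in knockout livers, Pparg, a lipogenic nuclear receptor, at 13.8 and 8.68, and Fitm1, which helps form droplets, at 75.4 and 39.5. The list's median of -0.24 became 0.03 when rescaled without the 50 most abundant genes.

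Of 26 tested lipoprotein and plasma lipase genes 2 rose and none fell, with a median of -0.16 (0.10 when rescaled without the 50 most abundant genes). Apoa4, an apolipoprotein that accompanies lipid secretion and is induced in fatty liver (chr9:46240696-46243459, plus strand), was at 113 RPKM in flox livers on chow, 433 in flox livers on high fat, 70.5 in knockout livers on chow and 405 in knockout livers on high fat. It rose in both genotypes, by 1.93 in flox and 2.50 in knockout livers, to similar levels. The most abundant apolipoproteins were lower on high fat in knockout livers without reaching 2-fold, with Apoa2 at 16032 and 10668 RPKM, Apoa1 at 7301 and 4793, and Apoc3, an inhibitor of lipoprotein lipase, at 4096 and 2347. Of 27 genes of glucose and fructose metabolism the only rise was that of Igfbp1.

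All 31 genes of the urea cycle and amino acid breakdown were lower on high fat in knockout livers, and 10 of them fell, with a median of -0.77. With the all-gene median subtracted 7 fell, and 6 when rescaled without the 50 most abundant genes, where the list's median was -0.48. In flox livers 1 of the 31 fell and the median was -0.18. Sds, serine dehydratase, which feeds serine into gluconeogenesis, was at 121 and 77.6 RPKM in flox livers and 108 and 34.2 in knockout livers, a knockout change of -1.62. Hal, histidine ammonia-lyase, was at 109, 90.4, 79.7 and 29.3 RPKM in the order given above, and Asl, argininosuccinate lyase of the urea cycle, at 223, 167, 206 and 80.6. Gls2, liver glutaminase, fell from 132 to 52 RPKM and Gnmt, glycine N-methyltransferase, from 1464 to 586. The knockout values on high fat were the lowest of the 4 groups for each of these 5 genes. Csad, which makes taurine from cysteine, fell in both genotypes, from 61.2 to 26.2 RPKM in flox and 162 to 61.7 in knockout livers. Of the urea cycle enzymes, chosen for naming after their values were seen, Ass1 fell from 2275 to 1002 RPKM, Arg1 from 683 to 318 and Otc from 170.3 to 84.5, while Cps1 was at 343 and 184 RPKM.

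The subunits of large abundant complexes were lower together by less than 2-fold. All 64 oxidative phosphorylation subunits were below the all-gene median, with a median of -0.62 and 1 fall, which was lost with the all-gene median subtracted, against -0.20 in flox livers. All 75 cytosolic ribosomal protein genes were below it too, with a median of -0.44, against -0.33 in flox livers. The 37 proteasome subunits had a median of -0.41, against -0.10 in flox livers. When rescaled without the 50 most abundant genes these medians were -0.33, -0.15 and -0.13. These genes are abundant and have short transcripts, and the classes of genes with high levels and short transcripts had medians below that of all genes in the same comparison, as given above. The part of level and length in these medians was not tested.

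**Figure D3:**
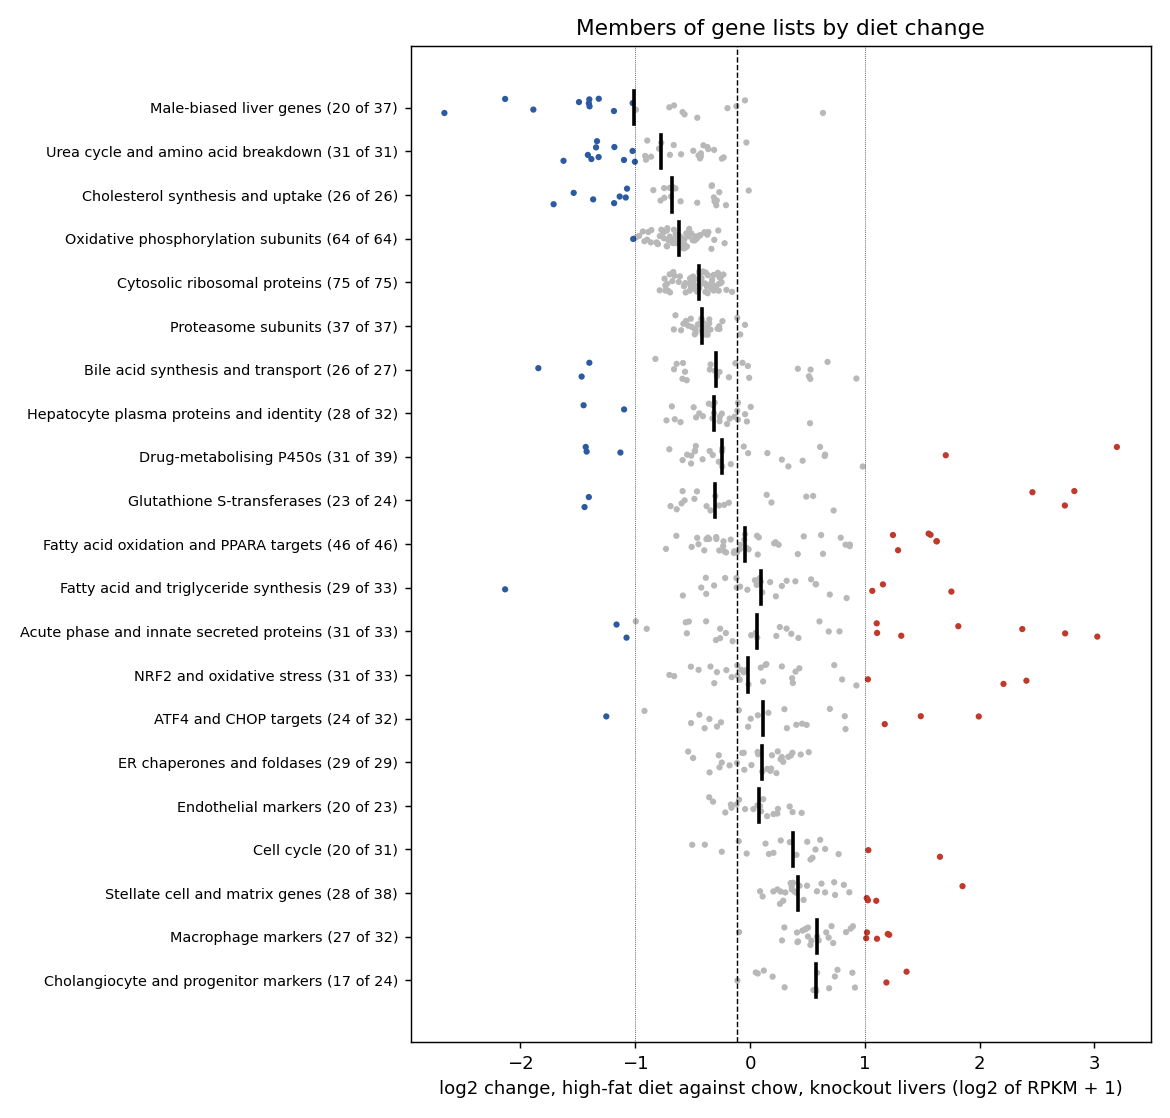
Log2 diet change in knockout livers of the tested members of 21 gene lists, 1 point per gene, scattered vertically only for legibility; red points rose and blue points fell by at least 2-fold. Thick bars are list medians, the dashed line is the median of all 10180 genes at -0.11, and labels give tested members of listed members; male-biased, amino acid and cholesterol lists sit to the left and marker lists of macrophages, matrix and bile duct to the right.

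Whole-liver RNA mixes cell types, and fewer cells of a type and less RNA per cell cannot be told apart in it. Of 32 macrophage markers 27 were tested, 5 rose and none fell (10 rises when rescaled without the 50 most abundant genes), and all 27 were above the all-gene median, with a median of 0.58. The other 5 were under 1 RPKM in both knockout groups, and no marker was listed at 0 in both. In flox livers none of 26 rose and the median was 0.19, against 0.56 in knockout livers over the same 26 genes. Trem2, 1 of the 5 knockout rises, was at 0.635 RPKM on chow and 2.3 on high fat. It was tested only through its high-fat value. The summed level of the list was 594 and 655 RPKM in flox livers on chow and high fat, and 599 and 899.95 RPKM in knockout livers, so the chow groups were alike and the knockout livers on high fat stood apart.

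Marco, a scavenger receptor of Kupffer cells, was at 3.7, 5.32, 2.5 and 7.11 RPKM in the order given above. Cd63, a tetraspanin of lysosomes and exosomes, was at 3.29, 4.4, 6.08 and 15.3 RPKM, and Cd5l, a secreted macrophage protein, at 39.9, 59.8, 33.1 and 68. Each had its highest value in the knockout livers on high fat, and Marco and Cd5l their lowest in the knockout livers on chow. Cd68, a lysosomal macrophage glycoprotein, was at 7.06 and 13.8 RPKM and Lgals3, galectin-3, at 3.07 and 6.57. Both were within 2-fold on the log2(RPKM + 1) scale. Of 23 tested chemokine and inflammation genes 3 rose (5 with the all-gene median subtracted), among them Vcam1, an adhesion molecule for leukocytes, from 2.73 to 7.97 RPKM. Il1rn rose from 0.776 to 3.02 RPKM and Ccl4 from 0.206 to 1.47, so both were tested only through their high-fat values. Over the 20 genes tested in both genotypes the median was 0.13 in knockout and in flox livers. Only 5 of 28 neutrophil and lymphocyte markers were tested, with none past 2-fold, and 20 were under 1 RPKM in both knockout groups. None of 29 interferon-stimulated genes reached 2-fold (1 with the all-gene median subtracted), although 24 were above the all-gene median.

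Of 38 stellate cell and matrix genes 28 were tested, 4 rose and none fell (7 rises when rescaled without the 50 most abundant genes). All 28 were above 0, with a median of 0.42. The filter fixed that sign for members under 1 RPKM on chow, such as Mmp12, 1 of the 4 rises, at 0.131 and 3.08 RPKM. Over the 24 genes tested in both genotypes the median was 0.41, against 0.20 in flox livers. The summed level was 294 and 413 RPKM in knockout livers and 326 and 385 in flox livers. Col3a1, a fibrillar collagen, was at 2.72, 4.23, 4.73 and 11.3 RPKM and Rgs5, a pericyte gene, at 3.72, 5.98, 4.17 and 9.47. Both were higher on high fat in both genotypes and highest in the knockout livers on high fat. Of 24 cholangiocyte and progenitor markers 17 were tested and 2 rose (4 with the all-gene median subtracted), with a median of 0.58. Over the 11 tested in both genotypes the median was also 0.58, against 0.06 in flox livers. The summed level was 676 and 967 RPKM in knockout livers, below the flox sums of 1463 and 1428, and the largest share of each knockout sum was that of Clu, clusterin, at 356 and 535 RPKM, which hepatocytes also make. Spp1, osteopontin, made by bile duct cells and macrophages, was at 19.7 and 20.6 RPKM in flox livers and 39.4 and 103 in knockout livers. Krt19, a defining bile duct keratin, was at 0.78 and 1.61 RPKM, and Epcam at 0.772 and 2.01, near the lower limit of the comparison. Krt23 rose in knockout livers from 0.482 to 2.38 RPKM and in flox livers from 0.803 to 2.67. Krt19, Epcam and Krt23 were under 1 RPKM in knockout livers on chow and were tested there only through their high-fat values. No marker of either list was listed at 0 in both knockout groups. None of 20 tested endothelial markers rose or fell, and their summed level was 210 RPKM on chow and 205 on high fat in knockout livers.

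The hepatocyte list had 2 falls among 28 tested genes and a median of -0.31, and -0.03 when rescaled without the 50 most abundant genes. Both falls were Serpina1 copies, whose members were listed at 0 in some groups and cannot be read one by one. Ttr, transthyretin, was at 4418 and 2904 RPKM in knockout livers and Foxa2, a liver transcription factor, at 9.41 and 5.61. Of the 29 markers of pancreas, gut, fat, muscle and kidney 25 were under 1 RPKM in both knockout groups, 15 of them at 0 in both. The erythroid genes differed in the other direction: 3 of 7 tested fell, all of them globin entries, and 1 of the 3 fell with the all-gene median subtracted or when rescaled without the 50 most abundant genes. This was the entry Hbb-b1,Hbb-b2, which went from 163 to 63 RPKM in knockout livers, while it was at 105 and 157 RPKM in flox livers. The summed level of the list was 2780 and 1348 RPKM in knockout and 1955 and 2622 RPKM in flox livers. The summed levels of the macrophage, matrix, bile duct and blood lists thus differed between the knockout diet groups, and their part in the acute phase, stress and metabolic changes was not tested.

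Growth-arrest and cell cycle genes included some of the largest rises. Cdkn1a, the cell cycle inhibitor p21 and a p53 target, was at 0.677 and 1.2 RPKM in flox livers and 2.21 and 10.4 in knockout livers, a knockout change of 1.83. It was 1 of 2 rises among 25 tested apoptosis and p53 genes, whose median was 0.03. Ccnd1, cyclin D1, which drives entry into the cycle, was at 3.84 and 4.67 RPKM in flox livers and 5.59 and 19.7 in knockout livers, a change of 1.65. It was 1 of 2 rises among 20 tested cell cycle genes, whose median was 0.38, and 11 further listed genes were under 1 RPKM in both knockout groups. Over the 15 cell cycle genes tested in both genotypes the median was 0.20, against -0.09 in flox livers. Pcna, a replication clamp, was at 18.4 and 20.3 RPKM and Tk1, thymidine kinase, at 12.5 and 8.49. Of the lists for circadian clock genes, heat shock chaperones, lysosome and autophagy genes and marker transcripts of RNA quality, none had a member past 2-fold, although 1 clock gene, Per1, passed it with the all-gene median subtracted and 1 lysosome gene did when rescaled without the 50 most abundant genes.

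Further large changes lay outside the lists described above. S100g, the calcium-binding protein calbindin-D9k (chrX:162961992-162964599, minus strand), had the largest rise of all genes, 4.24, and was at 0.103 and 0.263 RPKM in flox livers, 0.126 in knockout livers on chow and 20.2 in knockout livers on high fat. It was close to 0 in 3 groups, so the size of its change depends on the added 1 RPKM. Ly6d, a GPI-anchored surface protein (chr15:74762056-74763620, minus strand), was at 0.617, 1.55, 2.78 and 31.8 RPKM in the order given above. Among the falls Moxd1, a monooxygenase-like protein, was at 8.41, 12.3, 20.3 and 3.95 RPKM. Enho, which encodes the hormone adropin and belongs to a list of hepatokines not described above, was at 13.3, 3.99, 22.7 and 7.08. Enho fell in both genotypes, while Moxd1 was higher on high fat in flox livers. Of the 69 rises 49 were in a list and of the 82 falls 47.

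The flox livers give the diet response with Xbp1 intact, from groups that share no library with the knockout groups. Of 9958 genes tested there 22 rose (0.221%) and 44 fell (0.442%), with a median of -0.02. Over 9807 genes tested in both genotypes the changes had a Pearson r of 0.477 and a Spearman rho of 0.535 across genes, which are not independent replicates. Genes that rose in both were 5, which is 7.25% of all 69 knockout rises and 22.7% of the flox rises. Genes that fell in both were 17, which is 20.7% of all 82 knockout falls and 38.6% of the flox falls. Only 52 of the knockout rises were tested in flox livers, and 40 of these had a flox change above 0. Of the knockout falls 80 were tested there, and 68 had a flox change below 0. The knockout change exceeded the flox change by at least 1 for 56 of the 9807 genes (0.571%) and was below it by at least 1 for 55 (0.561%), and without replicates none of these differences could be tested.

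Among genes with at least 5 RPKM in either knockout group, and with genes left out whose symbols mark small RNAs, Rpph1 among them, the largest differences were those of Gstm3 (4.04), Gsta1 (3.45), Saa2 (3.27), Cyp2a4 (3.14), Gm3776 (3.12), Sqle (2.76), Lcn2 (2.69), Ly6d (2.46), Orm2 (2.39) and Idi1 (2.32). They had different forms. Gstm3 fell in flox livers and rose in knockout livers. For Sqle and Idi1 the flox livers fell and the knockout livers had a smaller change in the same direction. For Saa2, Cyp2a4, Lcn2 and Orm2 the flox changes were -0.24, 0.06, 0.06 and -0.02, and the knockout livers rose. Gsta1 and Ly6d had flox changes of -0.70 and 0.66, within 2-fold on the log2(RPKM + 1) scale, and rose in knockout livers.

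At the other end stood Moxd1 (-2.61), the ribonuclease P RNA-like gene Rprl3 (-2.27), Ear11, an eosinophil-associated ribonuclease (-2.16), 2 of the 3 globin entries (-1.93 and -1.48), Arrdc3 (-1.86), Rgs16 (-1.76), Cyp3a59 (-1.66), Mup21 (-1.55) and Abcg5 (-1.45). Arrdc3, an arrestin-like regulator of receptor trafficking and energy use, was at 25 and 52.4 RPKM in flox livers and 44.2 and 24.5 in knockout livers, opposite orders in the 2 genotypes. Rgs16, an inhibitor of G-protein signalling that glucose induces in liver, was at 10.2 and 38.7 RPKM in flox livers and 27.9 and 29.2 in knockout livers, so that here only the flox livers rose. Fabp2, a fatty acid carrier best known from gut, was at 61.3 and 159 RPKM in flox livers and 29.1 and 40.9 in knockout livers.

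**Figure D4:**
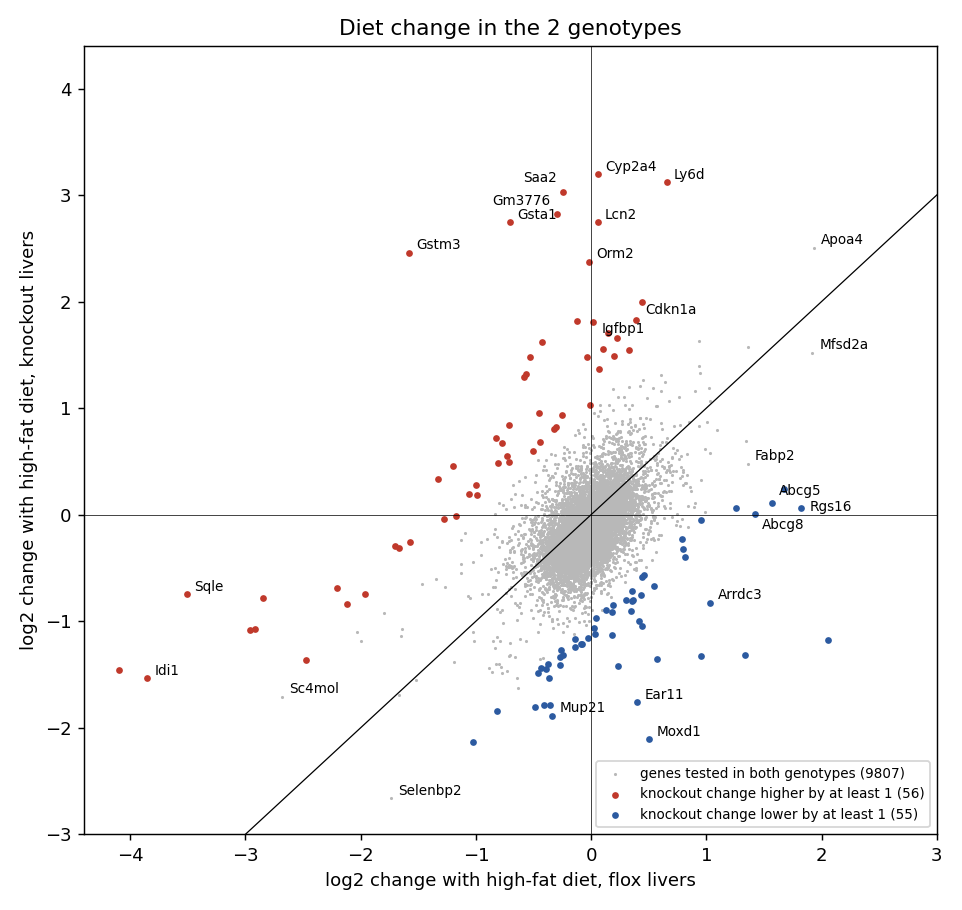
Log2 diet change in flox livers (horizontal) and knockout livers (vertical) for 9807 genes, 1 point per gene; the diagonal marks equal changes. Red points (56) are higher and blue points (55) lower in the knockout by at least 1; Saa2, Cyp2a4, Lcn2 and Orm2 lie near 0 on the flox axis, Idi1 and Sqle far to its left, and Apoa4 near the diagonal.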

How the data were processed

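Liver RNA of 4 groups (flox and Xbp1 knockout, each on chow or high-fat diet) was sequenced, and the authors deposited 1 RPKM value per gene and group, with 4 mice pooled into 2 libraries behind each. TopHat2 2.0.7, Cuffdiff 2.1.1 and the genome build mm10 are named per the submitters' processing notes. The sources used here do not give the annotation, the scaling or how libraries were combined. The depth is unknown. Repeated symbols were summed (23179 rows, 22923 symbols). Genes with at least 1 RPKM in either group and 0 in neither were compared as log2((high fat + 1)/(chow + 1)), with a pseudocount of 1 RPKM. A change of at least 1 was counted, without a test, because each group has 1 value. The same was done for flox livers, and the difference of the 2 changes was taken. Code was tested on simulated data. Software was Python 3.11.15, numpy 2.4.6, pandas 2.3.3 and matplotlib 3.10.9. Gene positions are from GENCODE on GRCm38, and promoter sequences from RefSeq.

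The comparison and the 44 gene lists were chosen with earlier results of these data known. Named, leaving out small RNA genes by the start of their symbol (which left out Rpph1 and kept Rprl3) and requiring 5 RPKM in either knockout group, were the 15 largest rises and 15 largest falls, the 10 largest and 10 smallest differences from flox livers, up to 6 members of each list with the largest changes, and 19 genes always. Genes named beyond this (Htra3, Ccdc68, Herpud1, Sel1l, Pdia6, Creld2, Atf3, Gpx2, Cyp2a5, Cyp2b9, Acadm, Cpt1a, Ass1, Arg1, Otc, Cps1, Krt19, Krt23, Epcam, Trem2, Il1rn, Ccl4, Per1, Gsta2, those at 0, those given only by their promoter, and the genes of the closing section other than Gstm3) were chosen after their values were seen. Some genes that the rule names are not reported here. Alternatives were other pseudocounts, filters, thresholds, scalings and treatments of zeros, repeated rows and small RNA genes.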

Additional observations from a re-analysis of the deposited data

Results flagged for a closer look

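For 3 genes the diet change passed 2-fold in opposite directions in the 2 genotypes. With 1 value per group, none of these differences was tested. Gstm3, a mu-class glutathione S-transferase, fell in flox livers and rose in knockout livers, and the 2 changes differed by 4.04 on the log2 scale. Fmr1nb, a gene best known from testis, was at 0.423 and 2.59 RPKM in flox livers on chow and high fat and at 2.06 and 0.222 RPKM in knockout livers, a difference of changes of -2.66 at levels near the lower limit of the comparison. Rpph1, the RNA component of ribonuclease P, was at 9.31 and 41.9 RPKM in flox livers and 78.6 and 34.1 RPKM in knockout livers, a difference of -3.24. Rpph1 is a small structured RNA, for which RPKM from standard libraries is unreliable.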

How the results depend on the processing

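No paired analysis was possible because the files hold 1 value per gene and group, although the labels number 2 libraries in each. For the same reason no replicate could be left out. The 69 rises became 186 and 30 with pseudocounts of 0.1 and 5 RPKM, 276 at a 1.5-fold threshold, 140 when groups were rescaled without the 50 most abundant genes and 152 when rescaled to equal sums. The 82 falls became 483 at 1.5-fold, 47 without the 50 most abundant genes and 44 at equal sums. The 56 genes with a higher change in knockout than in flox livers became 87 and 36 with the 2 pseudocounts and 86 at equal sums. The 55 genes with a lower change became 28 with the pseudocount of 5 RPKM, 31 without the 50 most abundant genes and 30 at equal sums. A filter of 5 RPKM gave 47 rises and 76 falls, keeping zeros gave 79 and 89, and removing the filter or taking the highest of repeated rows left 69 and 82. Of 82 named genes that rose or fell, 75 still did with the median subtracted, 68 without the 50 most abundant genes, 67 at equal sums and 62 with a pseudocount of 5 RPKM. Counts of rises and falls depend on how the groups are scaled, which the files cannot settle.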

Other observations

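Several listed rises were of genes at very low level outside the knockout livers on high fat, chosen here after their values were seen. Areg, an EGF receptor ligand, was at 0.0460 and 0.0248 RPKM in flox livers on chow and high fat, 0.0386 in knockout livers on chow and 2.11 in knockout livers on high fat. H19, an imprinted noncoding RNA of fetal liver, was at 0.0237, 0.0963, 0.0933 and 2.25 RPKM in the same order, and Sprr1a, a small proline-rich protein, at 0, 0.200, 0.113 and 4.21. Mmp12, the macrophage elastase, was at 0.0612, 0.197, 0.131 and 3.08 RPKM. In each gene the knockout livers on high fat were the only group above 1 RPKM, and the changes of such genes depend on the pseudocount.

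The next 5 genes were also chosen after their values were seen. Mfsd2a, a lysophospholipid transporter, rose in both genotypes, from 7.86 to 32.5 RPKM in flox and from 4.65 to 15.2 RPKM in knockout livers. Serpina7, thyroxine-binding globulin, also rose in both, from 10.2 to 22.1 RPKM in flox livers and from 91.2 to 192 RPKM in knockout livers, so its level followed genotype more than diet. Cyp26a1, which breaks down retinoic acid, fell in both, from 19.6 to 4.03 RPKM in flox and from 18.3 to 7.99 RPKM in knockout livers. Mt1, metallothionein, was at 101 and 123 RPKM in flox livers and rose from 163 to 351 RPKM in knockout livers. S100a11, a calcium-binding protein, was at 22.7 and 22.0 RPKM in flox livers and rose from 27.1 to 77.4 RPKM in knockout livers.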
